A study of Mus musculus with 12 samples.

Results

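The genes described here are 43 genes of ribosome production and its regulator Myc, chosen by symbol in the deposited count table, where all 43 were found among 55487 gene IDs. They were measured by RNA sequencing in BV2 cells, a mouse microglial line that was immortalised with a virus carrying v-raf and v-myc oncogenes. The viral myc was not analysed here. The 12 libraries form 4 groups of 3: high glucose medium with CD200Fc at 50 ng/mL (HG+CD200Fc), high glucose medium (HG), normal glucose medium with the same dose of CD200Fc (NG+CD200Fc), and normal glucose medium (NG). CD200Fc is a soluble form of CD200, the ligand of an inhibitory receptor on myeloid cells, fused to an antibody Fc. No group received a control Fc or an osmotic control, and no source used here gives the glucose concentrations or treatment times. Whether the 3 libraries of each group were grown as separate cultures is not stated, so the spread behind every p-value here may be technical.

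A cell makes ribosomes in the nucleolus, where RNA polymerase I copies the ribosomal DNA (rDNA) into a long precursor. Small nucleolar ribonucleoproteins (snoRNPs) modify this precursor, and processing factors cut and fold it separately for the small and the large subunit. MYC is a transcription factor that binds E-box DNA elements together with MAX and is known to activate many of these genes, together with genes of polyamine synthesis, nucleotide synthesis and cell growth. Microglia are the resident macrophages of the brain and retina, and cells of this lineage raise ribosome production when they grow or divide.

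Total counts ran from 21500000 to 31900000 per library. Of 20 microglia and macrophage markers, Sall1 alone was under 1 CPM (counts per 1000000 counts of the scaled library) in every group. Others were little above it: group means were 1.36 to 2.10 CPM for P2ry12 and 1.31 to 3.77 CPM for Cx3cr1. By contrast they were 1290 to 1640 CPM for Cd68 and 896 to 996 CPM for Csf1r. The summed level of the list was 6500 to 6750 CPM in HG+CD200Fc, 6660 to 7540 CPM in HG, 6720 to 6760 CPM in NG+CD200Fc and 6910 to 7280 CPM in NG. The protocol text of the labels describes dissected retinas, although the source is given as BV2; the group means of all 10 retinal neuron markers were under 1 CPM in every group. Other retinal lists had signal. Among photoreceptor genes, Pde6b averaged 35.9 CPM in HG+CD200Fc, 28.2 CPM in HG, 32.0 CPM in NG+CD200Fc and 34.0 CPM in NG, Sag averaged 2.05 to 2.85 CPM over the groups, Prph2 had 16.9 CPM in HG replicate 1 and at most 0.336 CPM in the other libraries, and Crx had 0 counts. Of 8 Mueller glia and astrocyte markers, Aqp4, Slc1a3 and S100b were under 1 CPM in every group, Gfap, Rlbp1 and Aldh1l1 averaged at most 1.61 CPM, and Vim (1880 to 2160 CPM) and Glul (142 to 156 CPM), which many other cell types also express, were high in all groups. Of 9 fibroblast and epithelial markers, 7 were under 1 CPM in every group, and Pdgfra and Krt8 averaged 1.10 and 1.03 CPM in HG and less elsewhere. The summed endothelial and mural list was 174 to 192 CPM in HG+CD200Fc, 254 to 256 CPM in HG, 167 to 174 CPM in NG+CD200Fc and 149 to 161 CPM in NG, most of it from Vwf. Tek, Cldn5, Emcn, Pdgfrb and Rgs5 were under 1 CPM in every group. Group means of the rest were 5.48 to 7.10 CPM for Kdr, 3.74 to 4.14 CPM for Acta2, 2.52 to 3.78 CPM for Pecam1 and 1.04 to 1.62 CPM for Cdh5. HG replicate 2 stood apart, with 1.49% of its counts on annotated nuclear ribosomal RNA genes, although ribosomal RNA was removed before library preparation. Mitochondrial ribosomal RNA genes were left out of this share. That share was 0.0981 to 0.119% in HG+CD200Fc, 0.0698 and 0.0788% in the other HG libraries, 0.0563 to 0.0599% in NG+CD200Fc and 0.053 to 0.055% in NG. The counts of calls without HG replicate 2 are given after those over all libraries.

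The E-box CACGTG was looked for in the RefSeq promoter windows (GRCm38.p6) that run from 250 bases before to 50 bases after each annotated start. Windows were found for 36 of the 43 genes. Of these 36 genes, 9 (25.0%) held CACGTG, against 11.2% of 11070 tested genes with a window and 8.09% of all 27025 genes in the table. The word CACGTG reads the same on both strands. The related E-box CACGCG, which does not overlap it and was searched on both strands, was in 11 of 36 (30.6%), against 18.6% of tested genes and 10.5% of all genes. The 9 genes with CACGTG were Rrn3, Mybbp1a, Nop2, Utp20, Wdr43, Imp4, Tsr1, Pes1 and Nle1. The 6 of them with the smallest p in HG vs NG are shown here, 5′ to 3′ on the strand of the gene, because they show where the best known MYC-bound word lies in genes that passed in both HG vs NG and the interaction. Capitals mark CACGTG. The windows are chr17:71615965-71616264 (plus strand), chr10:88826765-88827064 (minus strand), chr11:72441077-72441376 (plus strand), chr11:74897830-74898129 (plus strand), chr6:125131633-125131932 (plus strand) and chr11:3963725-3964024 (plus strand).
Wdr43: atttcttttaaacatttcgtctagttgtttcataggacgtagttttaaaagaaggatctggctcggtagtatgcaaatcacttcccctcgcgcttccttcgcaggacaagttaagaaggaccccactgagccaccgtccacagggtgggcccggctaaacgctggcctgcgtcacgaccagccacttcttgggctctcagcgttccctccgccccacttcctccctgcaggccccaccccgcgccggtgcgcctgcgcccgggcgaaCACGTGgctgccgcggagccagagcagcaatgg
Utp20: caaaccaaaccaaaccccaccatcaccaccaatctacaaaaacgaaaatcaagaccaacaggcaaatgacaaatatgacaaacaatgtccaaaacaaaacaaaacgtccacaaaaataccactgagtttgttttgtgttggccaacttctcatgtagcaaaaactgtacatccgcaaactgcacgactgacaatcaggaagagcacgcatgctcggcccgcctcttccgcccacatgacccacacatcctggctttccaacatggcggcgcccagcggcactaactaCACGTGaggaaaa
Mybbp1a: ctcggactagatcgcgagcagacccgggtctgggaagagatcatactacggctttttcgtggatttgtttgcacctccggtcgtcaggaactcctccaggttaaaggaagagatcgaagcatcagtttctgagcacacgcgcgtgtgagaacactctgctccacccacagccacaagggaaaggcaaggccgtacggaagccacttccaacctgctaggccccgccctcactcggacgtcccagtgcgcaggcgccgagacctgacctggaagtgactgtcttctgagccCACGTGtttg
Tsr1: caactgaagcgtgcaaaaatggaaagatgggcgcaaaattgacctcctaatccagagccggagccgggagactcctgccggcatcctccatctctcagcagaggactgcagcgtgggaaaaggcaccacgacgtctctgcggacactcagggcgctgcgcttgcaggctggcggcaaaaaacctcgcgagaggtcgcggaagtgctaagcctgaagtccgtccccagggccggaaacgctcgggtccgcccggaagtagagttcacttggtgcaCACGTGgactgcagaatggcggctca
Nop2: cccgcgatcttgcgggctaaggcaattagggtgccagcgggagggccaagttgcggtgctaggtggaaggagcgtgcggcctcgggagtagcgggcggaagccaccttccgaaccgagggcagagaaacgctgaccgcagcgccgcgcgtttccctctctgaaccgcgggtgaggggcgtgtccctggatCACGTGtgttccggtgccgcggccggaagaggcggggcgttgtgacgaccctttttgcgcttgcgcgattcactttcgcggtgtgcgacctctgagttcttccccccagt
Pes1: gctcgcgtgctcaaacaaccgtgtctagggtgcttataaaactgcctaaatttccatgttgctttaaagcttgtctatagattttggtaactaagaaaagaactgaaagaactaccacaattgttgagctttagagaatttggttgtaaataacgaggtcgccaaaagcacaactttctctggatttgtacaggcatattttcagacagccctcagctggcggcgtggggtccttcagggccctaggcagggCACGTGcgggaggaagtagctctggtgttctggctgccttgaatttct

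Counted from the annotated first base of the transcript as position 1, the word began at position 18 in Wdr43, 38 in Utp20, 41 in Mybbp1a, 25 in Tsr1 and 3 in Pes1, all just inside the transcribed region. In Nop2 it began at position -60, upstream of the start. All 9 genes with the word passed as lower in HG vs NG, with a median log2 fold change of -0.38, and 22 of 27 genes without it did, with a median of -0.32. In the interaction defined below, 8 of 9 genes with the word passed and 13 of 27 without it. These counts describe letters in a window and were not tested.

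Ribosome biogenesis genes were lower in HG than in NG cells and higher when HG cells also received CD200Fc, while CD200Fc in NG cells gave no call among them. The summed level of the 43 genes was 7734 ± 104 CPM in HG+CD200Fc, 6098 ± 75.5 CPM in HG, 7769 ± 131 CPM in NG+CD200Fc and 7821 ± 154 CPM in NG (SD, n = 3 each). The HG libraries lay below all others in this sum, and the other 3 groups overlapped. In bulk libraries fewer cells that use these genes and less RNA per cell cannot be told apart.

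Tests used edgeR's quasi-likelihood model on counts of 19182 genes, with p-values adjusted by Benjamini-Hochberg over all of them and a threshold of 0.05. In HG vs NG, 36 of the 43 genes passed as lower and 0 as higher, where 12.9% of all tested genes passed as lower and 11.7% as higher. All 43 log2 fold changes were negative, from -0.60 to -0.02 with a median of -0.35, beside a median of 0.02 over all tested genes. In 38 genes every HG library was below every NG library, against 19.8% of all tested genes, and in 0 genes every HG library was above, against 19.9%.

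In HG+CD200Fc vs HG, 34 of the 43 genes passed as higher and 0 as lower, where 9.46% of tested genes passed as higher and 8.30% as lower. All 43 log2 fold changes were positive, from 0.03 to 0.71 with a median of 0.31, beside a median of -0.02 over all tested genes. In 39 genes every HG+CD200Fc library was above every HG library, against 15.3% of all tested genes. The HG libraries enter both this comparison and HG vs NG, so the opposite signs of both comparisons are not independent of each other, and their values are given side by side.

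In NG+CD200Fc vs NG, 0 of the 43 genes passed, and 0% of the 19182 tested genes did. At an unadjusted p under 0.05 there were 1147 genes, 2 of them among the 43. The DESeq2 test and limma voom also called 0 genes. In edgeR, 21 genes were called without a filter on low counts and 9 with only the groups compared. A further fit called 8 genes without HG replicate 1, and the replicate block gave 2. None of these were among the 43. The libraries of these groups did not overlap in 3 of the 43 genes (Nop14, Imp4 and Pes1), all lower, and in 0 that were higher, against 6.16% and 5.71% of tested genes. Log2 fold changes of the 43 genes ran from -0.19 to 0.15 with a median of -0.01. Their 95% intervals together spanned -0.35 to 0.37. The lower end was that of Nhp2 (-0.19 ± 0.0793) and the upper end that of Myc (0.11 ± 0.13). A rise as large as the median of HG+CD200Fc vs HG lies within the intervals of Myc and Tcof1 (0.15 ± 0.0844) only.

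The interaction is the log2 fold change of CD200Fc in high glucose minus that in normal glucose, and it tests directly whether these differ. It passed as higher for 26 of the 43 genes and as lower for 0, where 3.62% of tested genes passed as higher and 3.58% as lower. All 43 values were positive, from 0.12 to 0.56 with a median of 0.33, beside a median of -0.01 over all genes.

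**Figure D1:**
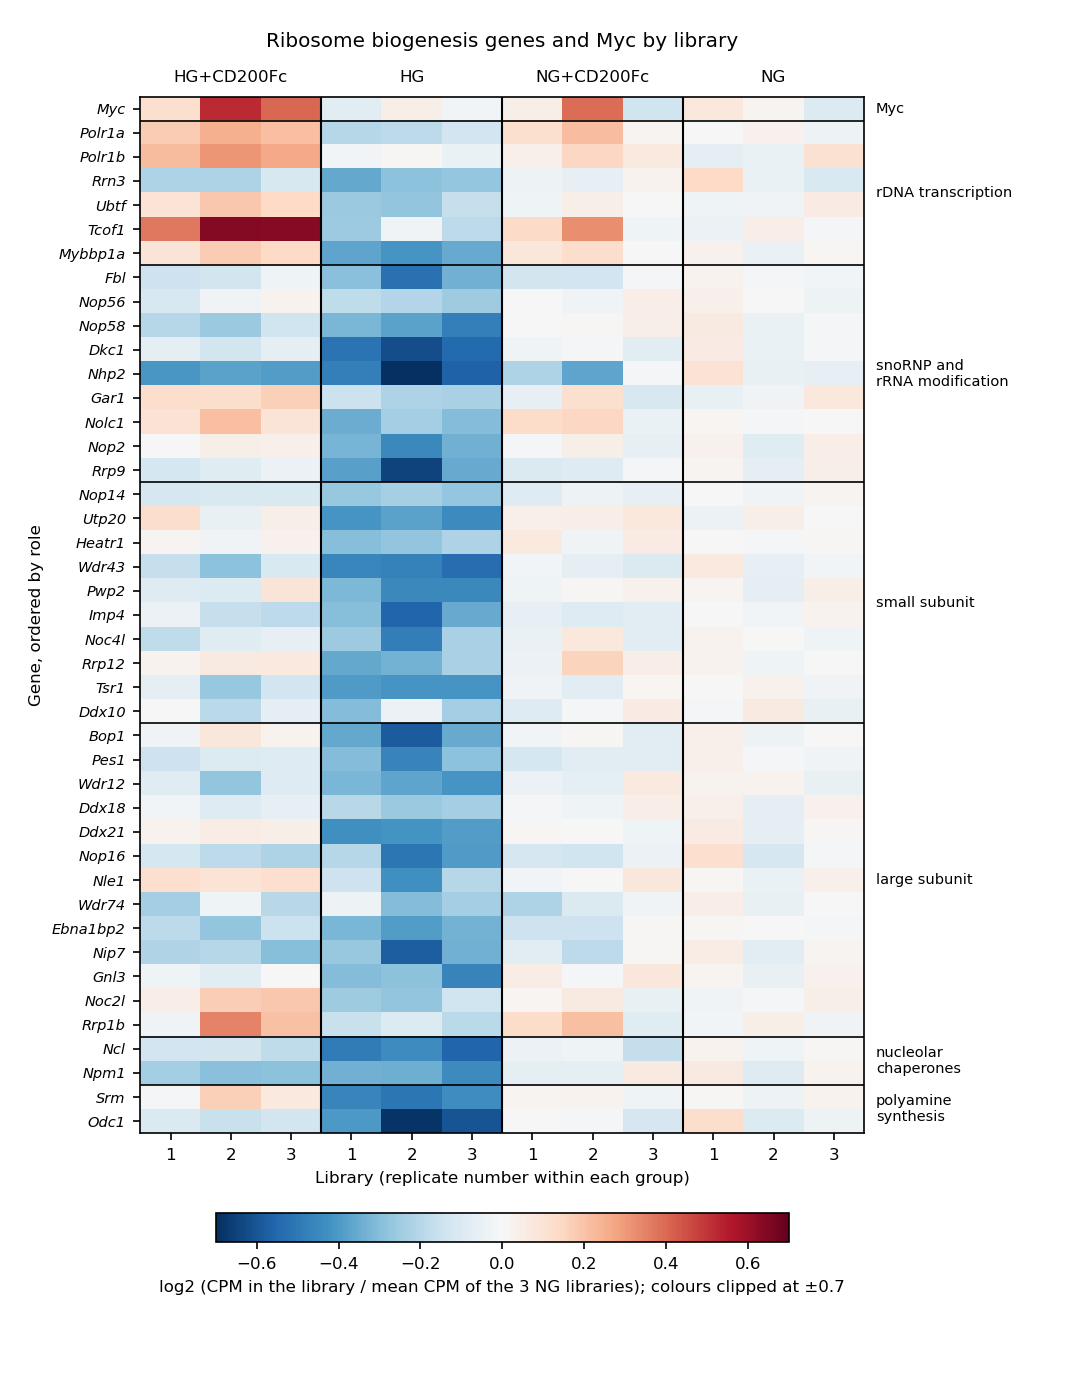
Each row is a gene, grouped by role, and each column is a library, with HG+CD200Fc, HG, NG+CD200Fc and NG from left to right. Colour gives log2 of the CPM over the mean CPM of the 3 NG libraries, blue for lower and red for higher, clipped at 0.7 on either side. The 3 HG columns are blue in nearly all rows, with 43, 41 and 43 of the 43 genes below the NG mean. In the other groups 28, 27 and 22 genes were below it in HG+CD200Fc, 29, 24 and 24 in NG+CD200Fc, and 10, 33 and 22 in NG.

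The library with the high nuclear ribosomal RNA share was HG replicate 2. Without it, 36 of the 43 genes passed as lower in HG vs NG, 32 as higher in HG+CD200Fc vs HG and 23 in the interaction. The calls pointed in the same directions as those over all 12 libraries.

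The levels of the genes spanned more than an order of magnitude. Per kilobase of annotated exon, the highest in NG were Nhp2 at 170 RPKM, Npm1 at 147 RPKM, Ncl at 123 RPKM and Mybbp1a at 120 RPKM (group means). The lowest in NG was Wdr12 at 9.62 RPKM, next to Rrp1b at 10.4 RPKM. Myc was 26th of the 43 genes by this scale, at 24.6 RPKM in NG. Exon lengths are unions over all annotated transcripts, so this order is approximate.

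Myc, the regulator, passed in none of the comparisons. The gene lies at chr15:61985391-61990374 (GRCm38, plus strand). It had 72.1, 96.0 and 88.1 CPM in HG+CD200Fc, 63.4, 68.6 and 65.8 CPM in HG, 68.8, 87.5 and 60.6 CPM in NG+CD200Fc, and 70.2, 67.7 and 62.4 CPM in NG. HG and NG overlapped, 2 of the 3 HG+CD200Fc libraries were above all others, and NG+CD200Fc had the widest spread. The log2 fold change was -0.02 ± 0.13 in HG vs NG (adjusted p = 0.94) and 0.37 ± 0.129 in HG+CD200Fc vs HG (adjusted p = 0.0743). The HG+CD200Fc libraries were all above the HG libraries, yet the gene did not pass. The call depended on the fit: Myc passed in 10 of 22 alternatives, among them the DESeq2 test (0.39, adjusted p = 0.00313) and the fit without NG+CD200Fc replicate 2 (0.38, adjusted p = 0.00163). The authors' deposited table lists 0.37 with an FDR of 0.0082 for the same pair of groups. Its interaction was 0.26 ± 0.183 (adjusted p = 0.507).

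Genes of rDNA transcription were split. Of 6 genes, 4 passed as lower in HG vs NG, 5 as higher in HG+CD200Fc vs HG, and 4 in the interaction. Mybbp1a, a nucleolar protein that acts in rDNA transcription and precursor processing, had 744, 791 and 769 CPM in HG+CD200Fc, 540.3, 524 and 547 CPM in HG, 736, 761 and 696 CPM in NG+CD200Fc, and 713, 676 and 705 CPM in NG. Every HG library lay far below the other 9, and the HG+CD200Fc libraries overlapped NG+CD200Fc and lay above NG. Its log2 fold change was -0.38 ± 0.0498 in HG vs NG (adjusted p = 2.56e-06) and 0.52 ± 0.0498 in HG+CD200Fc vs HG (adjusted p = 2.52e-08), with an interaction of 0.45 ± 0.0703 (adjusted p = 0.000117). Ubtf, which encodes the upstream binding factor that opens rDNA chromatin, had 225, 240.3 and 232 CPM in HG+CD200Fc, 176, 174 and 189 CPM in HG, 206, 217 and 211 CPM in NG+CD200Fc, and 206, 207 and 219 CPM in NG. It was lowest in the HG libraries and highest in HG+CD200Fc, with fold changes of -0.23 ± 0.0527 in HG vs NG (adjusted p = 0.00182) and 0.37 ± 0.0527 in HG+CD200Fc vs HG (adjusted p = 8.6e-06).

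Tcof1 and Polr1b were the only genes of the 43 that passed as higher in HG+CD200Fc vs NG+CD200Fc. Tcof1, which encodes treacle, a nucleolar scaffold for RNA polymerase I, had 192, 233 and 232 CPM in HG+CD200Fc, 125, 146 and 131 CPM in HG, 163, 186 and 146 CPM in NG+CD200Fc, and 145, 154 and 148 CPM in NG. The HG+CD200Fc libraries were the 3 highest, and HG and NG overlapped by 1 HG library. It had the largest log2 fold change of the 43 genes in HG+CD200Fc vs HG, 0.71 ± 0.0846 (adjusted p = 7.3e-06), and one of 0.41 ± 0.0841 in HG+CD200Fc vs NG+CD200Fc (adjusted p = 0.0075). It did not pass in HG vs NG, at -0.15 ± 0.0846 (adjusted p = 0.214). Without HG+CD200Fc replicate 2 the value against NG+CD200Fc was 0.36 and no longer passed (adjusted p = 0.0626).

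Polr1b, a catalytic subunit of RNA polymerase I, had 106, 113 and 109.5 CPM in HG+CD200Fc, 89.8, 91.4 and 88.2 CPM in HG, 93.3, 100.5 and 95.6 CPM in NG+CD200Fc, and 87.0, 88.1 and 98.0 CPM in NG. HG and NG overlapped, and the HG+CD200Fc libraries were above all others. The log2 fold change was -0.02 ± 0.0584 in HG vs NG (adjusted p = 0.849), 0.29 ± 0.0583 in HG+CD200Fc vs HG (adjusted p = 0.00073) and 0.18 ± 0.0582 in HG+CD200Fc vs NG+CD200Fc (adjusted p = 0.0487). The last call was lost in 13 of 22 alternatives, in which its value was 0.12 at the lowest. Polr1a, the largest subunit of the same enzyme, averaged 231 ± 5.43 CPM in HG+CD200Fc, 177 ± 4.12 CPM in HG, 216 ± 14.6 CPM in NG+CD200Fc and 199 ± 4.61 CPM in NG (SD, n = 3 each). It passed as lower in HG vs NG (-0.17) and as higher in HG+CD200Fc vs HG (0.38). The first of these no longer passed without NG replicate 2, at -0.16 (adjusted p = 0.0768), or with upper quartile scaling, at -0.14 (adjusted p = 0.0734). Its interaction call was lost in 6 of 21 alternatives (adjusted p up to 0.0861). Rrn3, the factor that makes RNA polymerase I competent to start, had 74.6, 74.8 and 80.3 CPM in HG+CD200Fc, 67.7, 71.0 and 72.0 CPM in HG, 84.6, 83.2 and 88.2 CPM in NG+CD200Fc, and 95.6, 83.9 and 80.7 CPM in NG. It fell in HG (-0.31, adjusted p = 0.000734), and HG+CD200Fc vs HG was 0.13 ± 0.0638, which did not pass (adjusted p = 0.199).

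Among the 9 genes of snoRNPs and rRNA modification, 8 passed as lower in HG vs NG, 8 as higher in HG+CD200Fc vs HG and 6 in the interaction. Dkc1, the pseudouridine synthase dyskerin of the H/ACA snoRNPs, had 91.0, 87.2 and 91.4 CPM in HG+CD200Fc, 66.6, 62.0 and 65.4 CPM in HG, 93.4, 94.4 and 90.8 CPM in NG+CD200Fc, and 99.4, 92.3 and 94.7 CPM in NG. The HG libraries were all below the other 9. Dkc1 fell by 32.3% in HG vs NG (log2 -0.56 ± 0.0565, adjusted p = 3.37e-08), and in HG+CD200Fc vs HG its log2 fold change was 0.48 ± 0.0566 (adjusted p = 6.78e-07). Its partners in the same particles, Nhp2 and Gar1, each passed in 1 of these comparisons. Nhp2 had the largest fall of the 43 genes in HG vs NG (-0.60 ± 0.0799, adjusted p = 1.15e-05), and its HG+CD200Fc vs HG value of 0.21 ± 0.0801 did not pass (adjusted p = 0.0721), although it passed in 11 of 22 alternatives. The interaction call of Nhp2 was lost in 7 of 21 alternatives (adjusted p up to 0.0923). Gar1 did not pass in HG vs NG (-0.20 ± 0.0861, adjusted p = 0.0962) and rose in HG+CD200Fc vs HG (0.34 ± 0.0861, adjusted p = 0.00628). Nop10, the remaining core protein of these particles and not one of the 43 genes, passed as lower in HG vs NG (-0.34) and did not pass in HG+CD200Fc vs HG (-0.08, adjusted p = 0.575). Differences between these partners were not tested.

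Of the core proteins of box C/D snoRNPs, Fbl, Nop56 and Nop58 passed as lower in HG vs NG and higher in HG+CD200Fc vs HG. Snu13, a core protein of the same particles that is not among the 43 genes, passed as lower in HG vs NG (-0.44) and did not pass in HG+CD200Fc vs HG (0.09, adjusted p = 0.485). Fbl, the methyltransferase fibrillarin, averaged 149.9 ± 6.48 CPM in HG+CD200Fc, 123 ± 10.1 CPM in HG, 151 ± 7.13 CPM in NG+CD200Fc and 161 ± 2.49 CPM in NG (SD, n = 3 each), with -0.38 in HG vs NG, 0.28 in HG+CD200Fc vs HG and an interaction of 0.37. Nop58, a scaffold of the same particles, had 144, 138 and 150.5 CPM in HG+CD200Fc, 133, 128 and 119 CPM in HG, 166, 167 and 171 CPM in NG+CD200Fc, and 173, 160.2 and 164 CPM in NG. Its HG+CD200Fc libraries lay between HG and the normal glucose groups and overlapped neither. The log2 fold change was -0.39 ± 0.0557 in HG vs NG (adjusted p = 8.42e-06), 0.19 ± 0.0558 in HG+CD200Fc vs HG (adjusted p = 0.0159) and -0.22 ± 0.0556 in HG+CD200Fc vs NG+CD200Fc (adjusted p = 0.0164). Leaving out HG+CD200Fc replicate 2 or NG+CD200Fc replicate 3 ended the last call (adjusted p up to 0.12), and leaving out HG+CD200Fc replicate 3 or HG replicate 3 ended the one against HG (adjusted p up to 0.107). Nop56, the other scaffold, had smaller changes of -0.21 in HG vs NG and 0.17 in HG+CD200Fc vs HG, and its interaction of 0.17 did not pass (adjusted p = 0.205). Its call in HG+CD200Fc vs HG was lost in 5 of 22 alternatives (adjusted p up to 0.135).

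The remaining genes of this role passed in all of HG vs NG, HG+CD200Fc vs HG and the interaction. Nolc1, a chaperone of snoRNPs, averaged 298 ± 14.3 CPM in HG+CD200Fc, 221 ± 8.51 CPM in HG, 286 ± 20.5 CPM in NG+CD200Fc and 271 ± 2.39 CPM in NG (SD, n = 3 each). Nop2, a methyltransferase of large subunit RNA whose promoter is shown above, averaged 227 ± 4 CPM in HG+CD200Fc, 173 ± 8.16 CPM in HG, 222 ± 7.51 CPM in NG+CD200Fc and 223 ± 10.8 CPM in NG (SD, n = 3 each). In both genes the HG mean was the lowest of the 4. Rrp9, a protein of the snoRNP that guides early cleavage of the precursor, changed by -0.45 in HG vs NG and 0.37 in HG+CD200Fc vs HG.

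**Figure D2:**
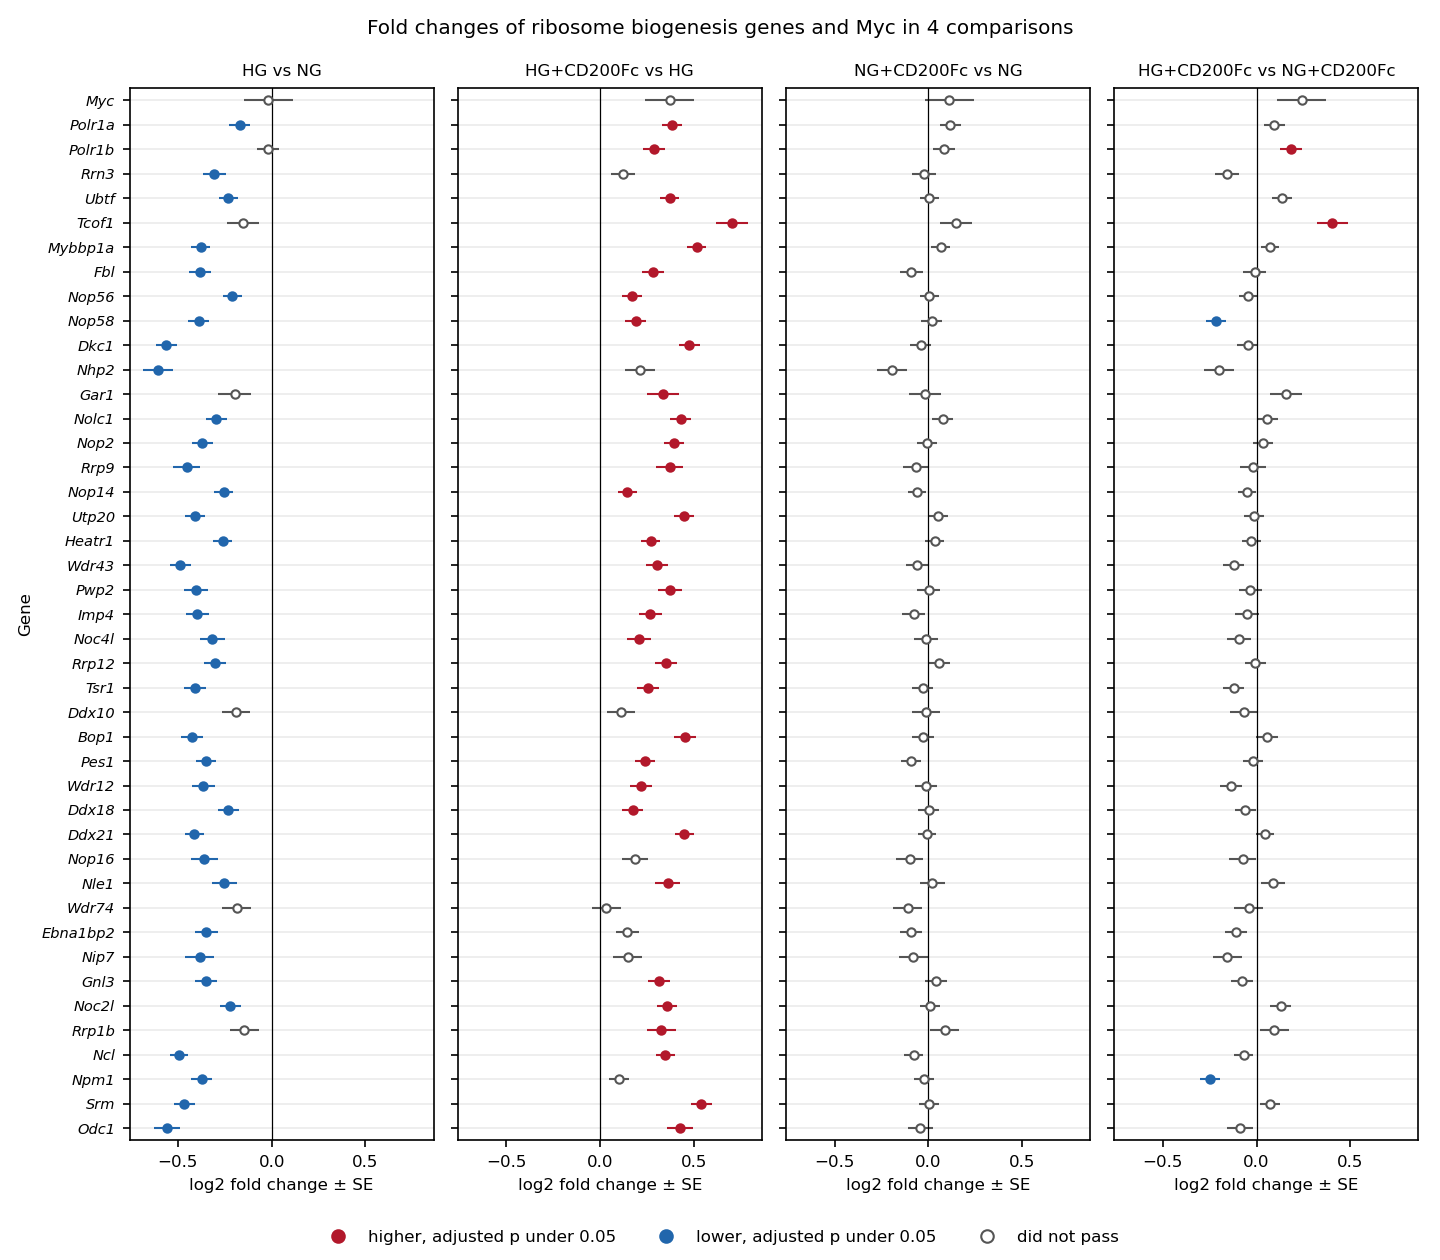
Points give the log2 fold change of each of the 43 genes with its standard error in HG vs NG, HG+CD200Fc vs HG, NG+CD200Fc vs NG and HG+CD200Fc vs NG+CD200Fc. Filled blue and red points passed the test as lower and higher. There are 36 filled blue points for HG vs NG, 34 filled red points for HG+CD200Fc vs HG, 0 filled points for NG+CD200Fc vs NG, and 2 red and 2 blue points for HG+CD200Fc vs NG+CD200Fc.

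Small subunit factors passed as lower in HG vs NG with 1 exception, Ddx10, whose call depended on the fit. Of 10 genes, 9 passed as lower in HG vs NG and 9 as higher in HG+CD200Fc vs HG, and 7 passed in the interaction. Wdr43, whose yeast counterpart belongs to the complex that first binds the precursor, had 148, 136 and 154 CPM in HG+CD200Fc, 121, 119 and 115 CPM in HG, 164, 159 and 154 CPM in NG+CD200Fc, and 174, 159 and 164 CPM in NG. Every HG library was below every library of the other groups, and HG+CD200Fc averaged below NG+CD200Fc without a call. The log2 fold change was -0.49 ± 0.057 in HG vs NG (adjusted p = 4.16e-07), 0.30 ± 0.0571 in HG+CD200Fc vs HG (adjusted p = 0.000288) and -0.12 ± 0.0568 in HG+CD200Fc vs NG+CD200Fc (adjusted p = 0.185). Utp20, a large scaffold protein of the small subunit processome, had 223, 198 and 211 CPM in HG+CD200Fc, 154, 159 and 151 CPM in HG, 211, 212 and 216 CPM in NG+CD200Fc, and 199.7, 211 and 205 CPM in NG. The HG libraries stood apart at the low end and the other 9 overlapped. Utp20 changed by -0.41 ± 0.0535 in HG vs NG (adjusted p = 2.22e-06) and 0.45 ± 0.0536 in HG+CD200Fc vs HG (adjusted p = 7.04e-07), with an interaction of 0.40 ± 0.0755 (adjusted p = 0.00107).

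The other small subunit factors changed by -0.26 to -0.41 in HG vs NG where they passed. Tsr1, a late factor of the small subunit, averaged 90.5 ± 6.13 CPM in HG+CD200Fc, 75.8 ± 0.508 CPM in HG, 98.5 ± 3.2 CPM in NG+CD200Fc and 101 ± 1.83 CPM in NG (SD, n = 3 each). Pwp2, a subunit of an early processome complex, averaged 84.4 ± 6.27 CPM in HG+CD200Fc, 65.1 ± 3.72 CPM in HG, 86.4 ± 1.92 CPM in NG+CD200Fc and 86.2 ± 3.2 CPM in NG (SD, n = 3 each). Both were lowest in HG, and Tsr1 in HG+CD200Fc did not overlap HG but averaged below both normal glucose groups. Imp4 changed by -0.40 in HG vs NG and 0.27 in HG+CD200Fc vs HG, Rrp12 by -0.30 and 0.35, and Heatr1 by -0.26 and 0.27, all past the threshold. Noc4l (-0.32 and 0.21) and Nop14 (-0.26 and 0.15) passed in both comparisons and not in the interaction. In HG+CD200Fc vs HG, the call of Nop14 was lost in 9 of 22 alternatives (adjusted p up to 0.152) and that of Noc4l in 3 (up to 0.177). The interaction call was lost in 11 of 21 alternatives for Heatr1, in 8 for Tsr1 and in 4 for Rrp12 (adjusted p up to 0.117). Ddx10, an RNA helicase, did not pass in HG vs NG (-0.19 ± 0.0735, adjusted p = 0.0588) or in HG+CD200Fc vs HG (0.11 ± 0.0738, adjusted p = 0.35), and its libraries overlapped in both. Its HG vs NG value passed as lower in 12 of 22 alternatives, among them the DESeq2 test and limma voom. Its HG+CD200Fc vs HG value passed as higher in 2 of 22.

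Large subunit factors gave 11 lower calls of 13 in HG vs NG, 9 higher calls in HG+CD200Fc vs HG and 6 in the interaction. Bop1, which works with Pes1 and Wdr12 in a complex that matures large subunit RNA, had 282, 302 and 292 CPM in HG+CD200Fc, 223, 191 and 224 CPM in HG, 282, 288 and 271 CPM in NG+CD200Fc, and 294, 279 and 286 CPM in NG. The HG libraries were the lowest 3 and HG replicate 2 the lowest of these. Bop1 changed by -0.43 ± 0.0579 in HG vs NG (adjusted p = 3.95e-06) and 0.45 ± 0.0579 in HG+CD200Fc vs HG (adjusted p = 1.95e-06), with an interaction of 0.48 ± 0.0817 (adjusted p = 0.000303). Its partners Pes1 (-0.35 and 0.24) and Wdr12 (-0.37 and 0.22) passed in both comparisons, and of these partners Pes1 passed in the interaction (0.33) and Wdr12 did not (0.23, adjusted p = 0.112). The Wdr12 call in HG+CD200Fc vs HG was lost in 3 of 22 alternatives (adjusted p up to 0.0718). Ddx21, an RNA helicase that links RNA polymerase I transcription with precursor processing, had 276, 281 and 279 CPM in HG+CD200Fc, 202, 203 and 207 CPM in HG, 274, 272 and 266 CPM in NG+CD200Fc, and 282, 259 and 274 CPM in NG. The 3 HG values were close together and far below the rest. Ddx21 changed by -0.41 ± 0.0499 in HG vs NG (adjusted p = 6.85e-07) and 0.45 ± 0.0499 in HG+CD200Fc vs HG (adjusted p = 2.24e-07), with an interaction of 0.46 ± 0.0704 (adjusted p = 9.84e-05).

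Gnl3, the nucleolar GTPase nucleostemin, averaged 85.0 ± 2.43 CPM in HG+CD200Fc, 68.4 ± 4.58 CPM in HG, 89.7 ± 2.85 CPM in NG+CD200Fc and 87.2 ± 2.55 CPM in NG (SD, n = 3 each). Noc2l, a nucleolar factor that also binds p53, averaged 322 ± 17.5 CPM in HG+CD200Fc, 251 ± 12.8 CPM in HG, 295 ± 12 CPM in NG+CD200Fc and 293 ± 7.15 CPM in NG (SD, n = 3 each). Both passed in HG vs NG, HG+CD200Fc vs HG and the interaction, as did Nle1 (-0.25, 0.36 and 0.34). Nle1 in HG replicate 2 was 45.9 CPM, the lowest of its 12 values, and without that library its HG vs NG value was -0.17 and no longer passed (adjusted p = 0.0652). The interaction call was lost in 9 of 21 alternatives for Gnl3 and in 5 for Nle1 (adjusted p up to 0.139). Ddx18, another helicase, passed as lower in HG vs NG (-0.23) and as higher in HG+CD200Fc vs HG (0.17), and did not pass in the interaction. The higher call of Ddx18 was lost in 5 of 22 alternatives (adjusted p up to 0.0921).

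A few large subunit genes fell in HG and did not pass when CD200Fc was added. Ebna1bp2 changed by -0.35 ± 0.0594 in HG vs NG, and its value of 0.15 ± 0.0598 in HG+CD200Fc vs HG did not pass (adjusted p = 0.0949). Nip7 (-0.38 and 0.15) and Nop16 (-0.36 and 0.19) gave the same calls, with adjusted p = 0.212 and 0.0734 in HG+CD200Fc vs HG. Rrp1b had the reverse calls: HG vs NG was -0.15 ± 0.0782 (adjusted p = 0.188), and it rose in HG+CD200Fc vs HG (0.33 ± 0.0781, adjusted p = 0.00396). Wdr74 passed in neither (-0.19 and 0.03).

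Both nucleolar chaperones fell in HG, and Ncl but not Npm1 passed as higher in HG+CD200Fc vs HG. The difference between them was not tested. Ncl, nucleolin, the most abundant of the 43 transcripts by CPM, had 1138, 1145 and 1105 CPM in HG+CD200Fc, 891, 921 and 849 CPM in HG, 1212, 1226 and 1113 CPM in NG+CD200Fc, and 1270.0, 1222 and 1256 CPM in NG. The HG libraries were the lowest 3, and HG+CD200Fc overlapped NG+CD200Fc and lay below NG. Ncl fell by 29.0% in HG vs NG (log2 -0.49 ± 0.0501, adjusted p = 3.96e-08), and changed by 0.35 ± 0.05 in HG+CD200Fc vs HG (adjusted p = 1.03e-05) with an interaction of 0.43 ± 0.0707 (adjusted p = 0.00024). Npm1, nucleophosmin, a histone and ribosome chaperone, had 334, 320.3 and 322 CPM in HG+CD200Fc, 311, 309 and 288 CPM in HG, 375, 375 and 409 CPM in NG+CD200Fc, and 409.8, 369 and 399 CPM in NG. All 6 high glucose libraries were below all 6 normal glucose libraries. Npm1 changed by -0.37 ± 0.0544 in HG vs NG (adjusted p = 1.09e-05) and -0.25 ± 0.0544 in HG+CD200Fc vs NG+CD200Fc (adjusted p = 0.00642), while HG+CD200Fc vs HG was 0.10 ± 0.0545 (adjusted p = 0.228) and the interaction 0.12 ± 0.0769 (adjusted p = 0.408). Without HG+CD200Fc replicate 2, or without NG+CD200Fc replicate 3, the call in HG+CD200Fc vs NG+CD200Fc was lost (adjusted p up to 0.0613).

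Polyamine synthesis is a classical output of MYC, and both of its genes here passed in HG vs NG, HG+CD200Fc vs HG and the interaction. Srm, spermidine synthase, had 133, 150.3 and 140.5 CPM in HG+CD200Fc, 97.3, 94.4 and 99.2 CPM in HG, 136, 136 and 131 CPM in NG+CD200Fc, and 135, 131 and 136 CPM in NG. The 3 HG libraries were far below the other 9. Srm changed by -0.47 ± 0.0557 in HG vs NG (adjusted p = 5.91e-07) and 0.54 ± 0.0558 in HG+CD200Fc vs HG (adjusted p = 6.76e-08), and its interaction of 0.54 ± 0.0785 had the smallest adjusted p of the 43 genes (5.06e-05). Odc1, ornithine decarboxylase, the rate-limiting enzyme, had 98.6, 95.0 and 96.3 CPM in HG+CD200Fc, 80.1, 65.7 and 69.7 CPM in HG, 106, 105 and 97.7 CPM in NG+CD200Fc, and 115, 99.0 and 103 CPM in NG. The HG libraries were again the lowest 3, with HG replicate 1 the highest of these. Odc1 fell by 32.1% in HG vs NG (log2 -0.56 ± 0.0685, adjusted p = 8.76e-07) and changed by 0.43 ± 0.0687 in HG+CD200Fc vs HG (adjusted p = 4.5e-05).

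**Figure D3:**
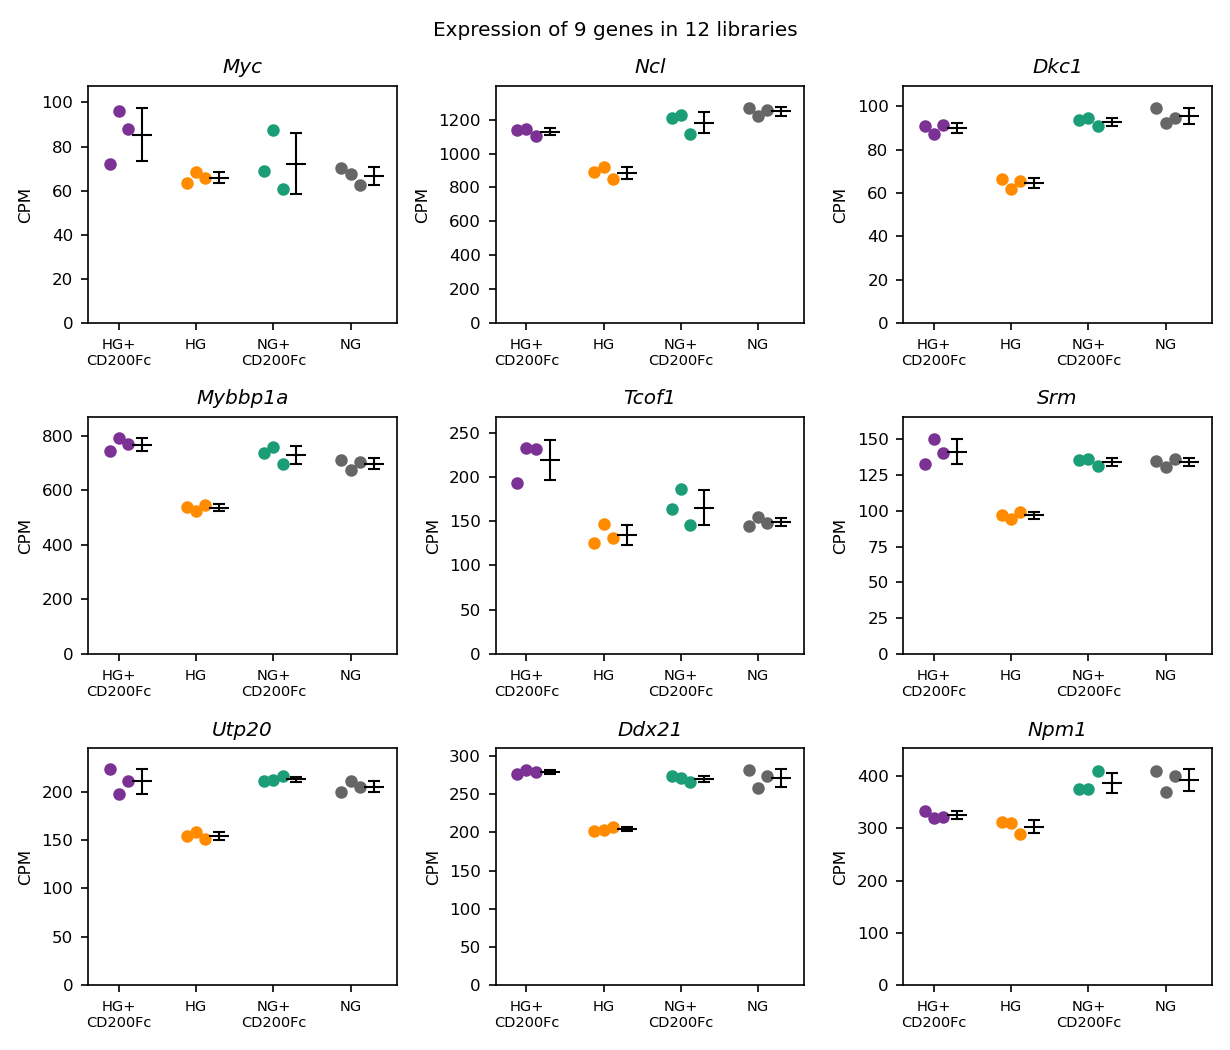
Points are libraries and bars the mean with its SD of 3 libraries, in CPM on axes that start at 0, for Myc, Ncl, Dkc1, Mybbp1a, Tcof1, Srm, Utp20, Ddx21 and Npm1 in HG+CD200Fc, HG, NG+CD200Fc and NG. In Ncl, Dkc1, Mybbp1a, Srm, Utp20 and Ddx21 the 3 HG points lie below all others. Myc shows no such gap, Tcof1 is highest in HG+CD200Fc, and Npm1 is low in both high glucose groups.

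Set side by side, the most frequent pattern was lower in HG vs NG, higher in HG+CD200Fc vs HG and a positive interaction, which 24 of the 43 genes passed in full. They were Polr1a, Ubtf, Mybbp1a, Fbl, Dkc1, Nolc1, Nop2, Rrp9, Utp20, Heatr1, Wdr43, Pwp2, Imp4, Rrp12, Tsr1, Bop1, Pes1, Ddx21, Nle1, Gnl3, Noc2l, Ncl, Srm and Odc1. Myc, Ddx10 and Wdr74 passed in none of the comparisons, although each passed in some of them under alternative fits. The 3 tests share the HG libraries and are not independent. The share of all tested genes with the full pattern was not counted. Taken singly, 12.9% of tested genes passed as lower in HG vs NG. In HG+CD200Fc vs HG 9.46% passed as higher, and 3.62% did in the interaction. Of the 24 genes, Polr1a, Heatr1, Rrp12, Tsr1, Nle1 and Gnl3 lost the interaction call in some alternatives.

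In HG+CD200Fc vs NG+CD200Fc, 2 of the 43 genes passed as higher (Tcof1 and Polr1b) and 2 as lower (Nop58 and Npm1), where 4.65% of tested genes passed as higher and 3.65% as lower. The median of the 43 was -0.03, beside 0.00 over all tested genes. The libraries of the groups did not overlap in 6 genes that were higher and 9 that were lower, against 13.0% and 14.2% of tested genes. Without HG+CD200Fc replicate 2, 0 genes passed in either direction.

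Further genes of the same pathways were counted in lists that hold none of the 43 genes. Most of those that act in subunit processing passed as lower in HG vs NG. Over all tested genes, 12.9% passed as lower and 11.7% as higher in that comparison. In HG+CD200Fc vs HG, 9.46% of all tested genes passed as higher and 8.30% as lower. Of 42 further small subunit factors, 32 (76.2%) passed as lower and 0 as higher in HG vs NG, with a median of -0.25. Ltv1, an export factor of the small subunit, was -0.54 in HG vs NG and 0.31 in HG+CD200Fc vs HG, and Bysl, a late processing factor, -0.39 and 0.38, all past the threshold. Of 46 further large subunit factors, 30 (65.2%) passed as lower and 1, Ddx55, as higher in HG vs NG, with a median of -0.22. Rrs1, an assembly factor of the large subunit, averaged 136 CPM in HG+CD200Fc, 95.4 CPM in HG, 123 CPM in NG+CD200Fc and 135 CPM in NG, and passed at -0.50 and 0.51. In HG+CD200Fc vs HG, 15 small subunit factors (35.7%) passed as higher and 1, Utp11, as lower. For the large subunit, 21 (45.7%) passed as higher and 0 as lower. Of 30 other known MYC targets, 25 (83.3%) passed as lower and 0 as higher in HG vs NG, with a median of -0.35. In HG+CD200Fc vs HG 15 of the 30 (50%) passed as higher and 1, Ldha, as lower. Grwd1, a ribosome assembly factor, had the smallest p of that list in HG vs NG, with 101 CPM in HG+CD200Fc, 67.6 CPM in HG, 102 CPM in NG+CD200Fc and 106 CPM in NG (-0.65 in HG vs NG and 0.58 in HG+CD200Fc vs HG).

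Lists from the enzyme and the RNA side of the pathway had calls as well. Of 12 further genes of the RNA polymerase I machinery, 5 (41.7%) passed as lower in HG vs NG (Polr1c, Polr1d, Polr1f, Polr1h and Taf1d). Another 2 (16.7%), Taf1b and Baz2a, passed as higher, where 12.9% of all tested genes passed as lower and 11.7% as higher. In HG+CD200Fc vs HG, 2 (16.7%), Polr1g and Taf1c, passed as higher, where 9.46% of all tested genes did. Polr1d, a subunit shared with RNA polymerase III, averaged 49.6 CPM in HG+CD200Fc, 50.2 CPM in HG, 59.3 CPM in NG+CD200Fc and 65.7 CPM in NG and was low in both high glucose groups. Of 14 snoRNP assembly factors, 7 (50%) passed as lower in HG vs NG. In HG+CD200Fc vs HG, 4 (28.6%) passed as higher (Naf1, Ruvbl1, Ruvbl2 and Pih1d1). Of 15 tested genes of the RNA exosome and precursor trimming, 7 (46.7%) passed as lower in HG vs NG. In HG+CD200Fc vs HG, 1 (6.67%), Exosc2, passed as higher, a share under the 9.46% of all tested genes. Of 13 tested snoRNA host transcripts, 6 (46.2%) passed as lower in HG vs NG and 0 passed in HG+CD200Fc vs HG.

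Of 15 tested genes of the MYC network, 4 (26.7%) passed as higher (Mxd4, Mxd1, Trrap and Pim1) in HG vs NG, against 11.7% of all tested genes. Another 2 (13.3%) passed as lower (Cip2a and Zbtb17), a share near the 12.9% of all tested genes. Of the same 15, 3 (20%) passed as higher (Mnt, Zbtb17 and Wdr5) and 2 (13.3%) as lower (Mxd4 and Mxd1) in HG+CD200Fc vs HG. Over all tested genes these shares were 9.46% and 8.30%. Mxd4 and Mxd1 encode MAX partners that repress E-box genes in place of MYC. Mxd4 averaged 38.5 CPM in HG+CD200Fc, 63.1 CPM in HG, 33.8 CPM in NG+CD200Fc and 31.1 CPM in NG, the HG mean being the highest. Its log2 fold change was 1.02 ± 0.084 in HG vs NG (adjusted p = 9.74e-10) and -0.71 ± 0.0832 in HG+CD200Fc vs HG (adjusted p = 5.3e-07), and its interaction was -0.83 ± 0.119 (adjusted p = 3.92e-05). Mxd1 was lower in level, with 6.02 CPM in HG+CD200Fc, 9.29 CPM in HG, 5.94 CPM in NG+CD200Fc and 5.82 CPM in NG, and passed at 0.67 and -0.62 in the same comparisons, without passing in the interaction (adjusted p = 0.0657). Mnt, another MAX partner that represses E-box genes, had other calls: it did not pass in HG vs NG (0.23, adjusted p = 0.0655), and passed as higher in HG+CD200Fc vs HG (0.29, adjusted p = 0.0222) and in HG+CD200Fc vs NG+CD200Fc (0.41, adjusted p = 0.00773). Mxi1 (-0.06) and Mxd3 (-0.24), of the same family, did not pass in HG vs NG.

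Of 18 tested polyamine genes beyond Srm and Odc1, 7 (38.9%) passed as lower in HG vs NG, and 2 (11.1%), Azin2 and Atp13a2, as higher, a share near the 11.7% of all tested genes. Their median was -0.03, and 12.9% of all tested genes passed as lower. Amd1, which supplies the aminopropyl donor, was -0.42 ± 0.0745 in HG vs NG (adjusted p = 0.000126). In HG+CD200Fc vs HG, 1 (5.56%), Slc3a2, passed as higher (0.25) and 3 (16.7%), Azin2, Sat1 and Smox, as lower. Over all tested genes these shares were 9.46% and 8.30%. In the list of p53 targets and nucleolar stress genes, 7 of 16 (43.8%) passed as lower in HG vs NG, and 2 (12.5%), Mdm4 and Sesn2, as higher, again near 11.7%. The lower ones included the p53 target Cdkn1a (-0.36), the p53 target Phlda3 (-0.45) and Mdm2 (-0.25), the ligase that degrades p53. In HG+CD200Fc vs HG, 6 of the 16 (37.5%) passed as higher and 0 as lower, against the same 9.46% and 8.30%. Among these 6 were Cdkn1a (0.21), Phlda3 (0.29) and Mdm2 (0.25).

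Cell division genes changed in the same directions as the ribosome biogenesis genes. Of 25, 23 (92%) passed as lower and 0 as higher in HG vs NG, where 12.9% and 11.7% of all tested genes did. Their median was -0.33 there. In HG+CD200Fc vs HG, 13 (52%) passed as higher and 0 as lower, where 9.46% and 8.30% of all tested genes did. Ccna2, cyclin A, averaged 97.6 CPM in HG+CD200Fc, 73.3 CPM in HG, 107 CPM in NG+CD200Fc and 113 CPM in NG. The part of cell division in the results for ribosome biogenesis genes was not tested. In NG+CD200Fc vs NG, 0 genes of any list passed.

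**Figure D4:**
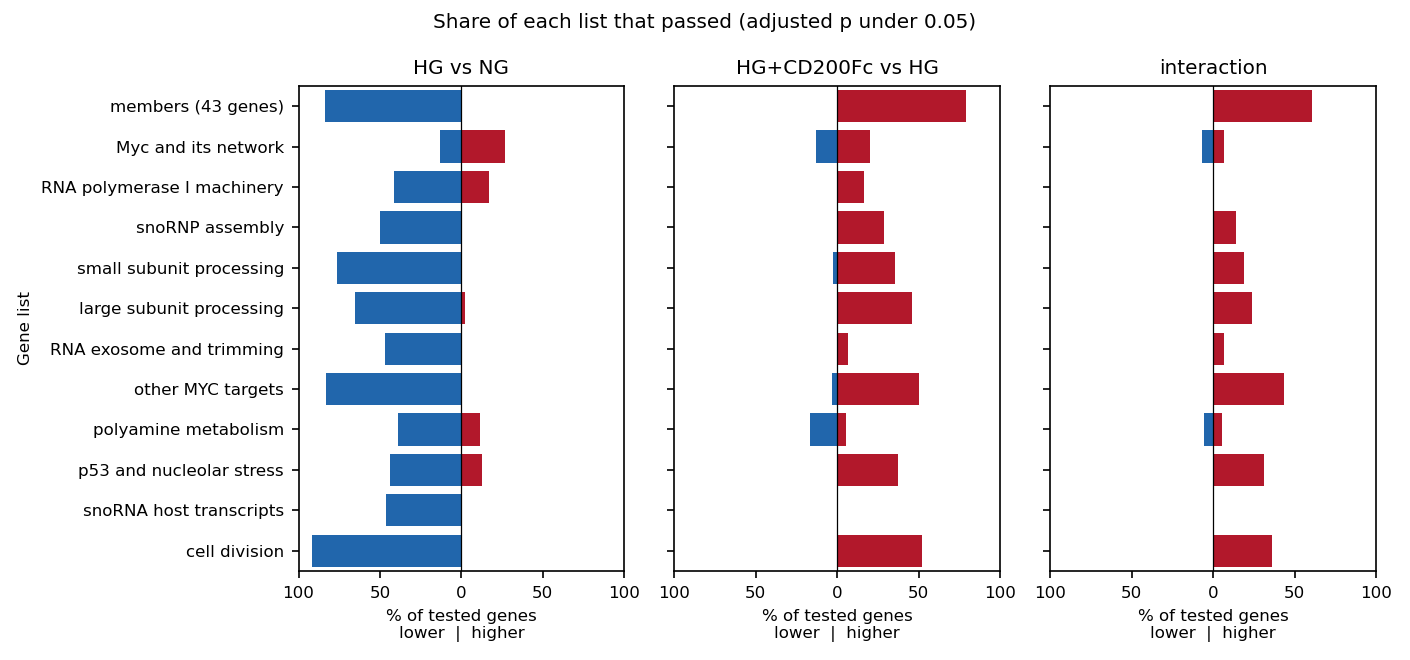
Bars give the percentage of tested genes of each list that passed as lower (blue, to the left) or higher (red, to the right) in HG vs NG, in HG+CD200Fc vs HG and in the interaction. The 43 genes are the top bar, at 83.7% lower, 79.1% higher and 60.5% higher. Subunit processing, other MYC targets and cell division have long bars in the same directions, and the MYC network, polyamine and RNA polymerase I lists have bars on both sides in HG vs NG.

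Of the 43 genes, 18 share 5 to 1240 exon bases with a neighbour on the opposite strand. The longest stretches were 1240 bases between Tsr1 and Srr, 598 between Noc2l and Samd11, 209 between Imp4 and a predicted antisense gene, and 185 between Polr1a and another such gene. No source used here gives the strand setting of the counting, so reads in those stretches cannot be assigned with certainty. The authors' deposited table gave 35 of the 43 genes as lower and 0 as higher in high against normal glucose, where it listed 15.9% of 15372 genes in each direction, and 34 as higher and 0 as lower for CD200Fc in high glucose, where it listed 11.5% as higher. For high glucose with CD200Fc against untreated normal glucose, the authors' deposited table listed 4 genes as higher (Myc, Polr1a, Polr1b and Tcof1) and 6 as lower (Nop58, Nhp2, Wdr43, Ebna1bp2, Nip7 and Npm1), where it listed 12.8% and 13.2% of all genes.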

How the data were processed

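Per the labels, RNase H depletion removed ribosomal RNA, and libraries were primed with random hexamers and sequenced as paired reads of 150 bases. The source is BV2, although the protocol text describes sorted retinal cells; the source was followed. A member of the photoreceptor marker list is not reported here. The authors deposited raw counts per gene. The submitters' processing notes name STAR, featureCounts and build GRCm38; the annotation release and the strand setting are named by no source used here. A second table deposited by the authors gives log2 fold changes and p-values for 4 comparisons, and was used only where named; its 12 repeated count columns were not used.

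Of 55774 lines, 287 exact repeats were dropped. Genes were filtered by filterByExpr, scaled by TMM, and fitted with edgeR 4.0.16 (robust quasi-likelihood, R 4.3.3) as 4 group means over 12 libraries, with a biological coefficient of variation of 0.0908. Values are CPM, counts per 1000000 of the TMM-scaled library size; RPKM used exon unions of GENCODE M21. Errors of fold changes are model standard errors. Replicates differed beyond counting noise (chi-square per degree of freedom 3.63 to 36.2), and none were merged. Reads carry no molecular identifiers, so depth covers counting error only. The procedure was tested on simulated data.

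The 43 genes, the lists and their roles were chosen with earlier results of these data known. Values in every library are given for Myc, for the genes of each role with the smallest p in HG vs NG, and for genes with the smallest p in the CD200Fc comparisons. Ubtf is shown in addition, outside this rule. Of each list, up to 4 genes with the smallest p in HG vs NG could be named; genes named beside a count of 5 or fewer were chosen after their values were seen. Alternatives were DESeq2 1.42.0 (test, or size factors alone), limma 3.58.1 voom, upper quartile scaling, no filter, a stricter filter (at least 1 CPM and 10 counts in any 3 libraries), only the groups compared, removal of exon length and GC trends, a replicate block, and leaving out each library.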

Additional observations from a re-analysis of the deposited data

Results flagged for a closer look

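In 26 of the 43 genes the effect of CD200Fc differed between glucose levels by the interaction test itself, with an adjusted p under 0.05 in edgeR. The value given for each gene is the log2 fold change of CD200Fc in high glucose minus that in normal glucose. Among genes of rDNA transcription it was 0.27 for Polr1a, 0.37 for Ubtf, 0.56 for Tcof1 and 0.45 for Mybbp1a. Among genes of snoRNPs and rRNA modification it was 0.37 for Fbl, 0.52 for Dkc1, 0.41 for Nhp2, 0.35 for Nolc1, 0.40 for Nop2 and 0.44 for Rrp9. For small subunit factors it was 0.40 for Utp20, 0.23 for Heatr1, 0.36 for Wdr43, 0.37 for Pwp2, 0.35 for Imp4, 0.30 for Rrp12 and 0.29 for Tsr1. For large subunit factors it was 0.48 for Bop1, 0.33 for Pes1, 0.46 for Ddx21, 0.34 for Nle1, 0.27 for Gnl3 and 0.35 for Noc2l. Of the nucleolar chaperones, it passed with 0.43 for Ncl. In polyamine synthesis it was 0.54 for Srm and 0.47 for Odc1. All 26 values were positive, and 3.62% of all tested genes passed in this direction. The test was made for Myc as well, which did not pass (0.26, adjusted p = 0.507). The call was lost in at least 1 of 21 alternatives for Heatr1, Gnl3, Tsr1, Nhp2, Polr1a, Nle1 and Rrp12.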

How the results depend on the processing

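No alternative reversed a count or a called gene. The count of the 43 genes higher in HG+CD200Fc vs NG+CD200Fc moved from 2 to 4 with limma voom, and to 1 with only the groups compared, with exon length and GC trends removed, and with the replicate block plus that removal. Removing exon length and GC trends gave 41 genes lower in HG vs NG, 42 higher in HG+CD200Fc vs HG and 34 in the interaction. With upper quartile scaling, 2 of the 43 genes had a positive HG vs NG value and 35 passed as lower. When each library was left out in turn, the 43 genes gave 35 to 38 lower and 0 higher calls in HG vs NG, 28 to 36 higher and 0 lower in HG+CD200Fc vs HG, 0 to 3 higher and 0 to 3 lower in HG+CD200Fc vs NG+CD200Fc, 19 to 27 higher and 0 lower in the interaction, and 0 in NG+CD200Fc vs NG. Calls present under every alternative numbered 34 of 36 in HG vs NG, 28 of 34 in HG+CD200Fc vs HG, 19 of 26 in the interaction and 0 of 4 in HG+CD200Fc vs NG+CD200Fc. The cause of these shifts was not tested.

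The groups share replicate numbers, but nothing in the labels says that a number marks a shared culture or day. Correlations of the deviations of same-numbered libraries ran from -0.07 to 0.18 over 18 pairs, and 5 were over 0.1. All of these but HG replicate 1 with NG replicate 1 joined replicate 2 libraries. Pairs with different numbers ran from -0.21 to 0.24. As the labels give no pairing, the block was used only as an alternative. Over all tested genes it gave 5258 calls in HG vs NG, against 4720 without it, and 2314 in HG+CD200Fc vs NG+CD200Fc, against 1593. With the replicate block, 37 of the 43 genes were lower in HG vs NG, 37 higher in HG+CD200Fc vs HG, 27 higher in the interaction, 2 higher and 2 lower in HG+CD200Fc vs NG+CD200Fc, and 0 in NG+CD200Fc vs NG.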

Other observations

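Several of the 43 genes carry snoRNA genes in their introns. The 12 annotated snoRNAs that lie within Nop58, Nop56, Dkc1, Wdr43, Tsr1, Ncl or Odc1 without touching an annotated exon had 14 to 175 counts each over the 12 libraries together. The 10 that share bases with an annotated exon of Nop56, Nop58, Gnl3 or Ncl had 0 counts in all 12 libraries. Reads in the shared bases cannot be assigned to the snoRNA or its host gene with certainty. The 0 counts therefore do not show that these snoRNAs were absent.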
